A study of Mus musculus with 9 samples.

Results

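The 49 genes described here encode the machinery that copies the genome and the regulators that admit a cell to S phase. They comprise the origin recognition complex, the licensing factors, the MCM helicase with its activators, the replicative polymerases, the sliding clamp and its loader, single-strand binding, flap removal and ligation, nucleotide supply, and the E2F factors with cyclin E. They were taken as a list of mouse symbols, each found on the array through the accession of its probes, with the brightest probe standing for the gene. All 49 of the 49 were tested, among 26866 features in all.

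The study asked which transcripts respond to each of 2 small molecules in mouse embryonic stem cells. The cells were the J1 line of strain 129S4/SvJae, obtained from ATCC, adapted to gelatin without feeder cells and grown in KnockOut medium with serum replacement and 1000 U/mL of leukaemia inhibitory factor (LIF). DMSO, the solvent, was the control. The treated groups had 3 µM CHIR99021, which blocks GSK3 and so switches on Wnt signalling, or 1 mM AICAR, a nucleoside that activates AMP-activated protein kinase. All groups were collected at 24 h in medium with LIF, and each has 3 arrays. All groups are therefore of 1 cell line, and whether the numbered replicates were grown separately is not said in the labels. The p-values therefore cover no more than the differences among these arrays, which may be technical.

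Before S phase, ORC, Cdc6 and Cdt1 load the MCM ring onto origins, and geminin blocks reloading once replication has begun. Cdc45 and GINS then convert the ring into an active helicase, primase lays down primers, and the clamp holds the polymerases on DNA. In most somatic cells these genes are transcribed when cyclin E and its kinase release E2F from the retinoblastoma protein, whereas in mouse embryonic stem cells that brake is weak, G1 is short and cyclin E is high for most of the cycle.

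Levels are given as the log2 of the processed spot signal minus the 75th percentile of its array, so a level of 0 is the signal at that percentile. Differences between groups are log2 differences with the standard error of the fit (SE, 3 arrays a group). A gene was called when its limma p, adjusted by Benjamini-Hochberg over all features of the comparison, was under 0.05. Between 62.8% and 67.2% of an array's spots stood well above background, and arrays of 1 group correlated at 0.995 to 0.997 against 0.973 to 0.983 between groups. The median SD of the 49 genes was 0.04 in DMSO, 0.05 in CHIR99021 and 0.07 in AICAR, and the median half-width of the 95% confidence interval of a difference was 0.13. Of the 49 genes, 48 were well above background on all 9 arrays and none was saturated. The exception was Ccne2. Each group lay on a slide and a scan of its own, so slide and treatment cannot be told apart.

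All 10 embryonic stem cell markers were well above background on all 9 arrays. Their summed signal, in units of each array's 75th percentile, was 603 to 622 in DMSO, 589 to 616 in CHIR99021 and 636 to 681 in AICAR. Dppa5a was the brightest of them (8.39 in DMSO), and the sum hides moves of others. With CHIR99021 4 were called higher, among them Klf4 (1.06) and Esrrb (0.73). The 3 called lower were Utf1 (-1.22), Fgf4 (-0.70) and Tdgf1 (-0.60). With AICAR 6 were higher and 2 lower. Over all features 30.4% and 20.5% were called with CHIR99021, and 30.9% and 29.6% with AICAR. Summed markers of other cells lay far below those of embryonic stem cells but moved with treatment. Single genes among them were not all low. Tubb3 read 1.81 in DMSO, and T and Cdx2 read 2.66 and 1.85 in CHIR99021. Summed mesoderm markers, 3 of 5 of them well above background on all arrays, read 1.07 to 1.14 in DMSO, 8.26 to 8.63 in CHIR99021 and 1.72 to 1.89 in AICAR. Summed trophoblast markers (2 of 5) read 1.09 to 1.14, 5.45 to 6.14 and 2.06 to 2.29 in the same order. These sums follow a few genes. With CHIR99021 the largest rises were T (8.27) of the mesoderm list and Cdx2 (7.27) of the trophoblast list. Eomes (1.15) is in both lists. Tbx6, Mesp1 and Krt8 rose less (0.41, 0.34 and 0.73), and Gata3 fell (-1.26). Neural markers (4 of 5) read 6.18 to 6.30, 3.94 to 4.12 and 5 to 5.51. Primitive endoderm markers (6 of 7) read 0.892 to 0.957, 0.972 to 1.08 and 1.04 to 1.11. Fibroblast markers (4 of 10), which stand for feeder cells, read 2.08 to 2.24, 2.22 to 2.36 and 3.28 to 3.96. The summed rise with AICAR does not stand for that whole list. Of its genes 2 were called higher and 3 lower with AICAR (30.9% and 29.6% of all features). Thy1 and Pdgfrb rose (0.91 and 2.32), and Col1a1, Col1a2 and Dcn fell (-0.51, -1.29 and -2.93). The part of these other cells in the results below was not tested. Because these are bulk samples, fewer cells in a phase of the cycle and less RNA per cell cannot be told apart.

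With CHIR99021 the replication genes stayed close to their DMSO levels, with E2f3 and Gins3 the main rises and E2f2, Pold1 and Gins2 the main falls apart from Ccne2. In this comparison 11 genes rose and 8 fell, 19 in all or 38.8% of the list, against 51.0% of all features called (30.4% higher and 20.5% lower). Only Ccne2 was called at 1.5-fold or more, where 19.5% of all features were. The median difference of the list was 0.02 against 0.07 over all features, and the median size, whatever the sign, was 0.15 against 0.28. Leaving out DMSO replicate 1 moved the rises and falls to 7 and 4, where 26.5% and 17.6% of all features were called. Without DMSO replicate 3 they were 6 and 5 (26.3% and 17.4%). They were 8 and 5 (26% and 18.2%) without CHIR99021 replicate 1, and 6 and 7 (26.8% and 18.3%) without CHIR99021 replicate 2. The 30 genes without a call all had a 95% confidence interval inside 1.5-fold in either direction.

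With AICAR, compared with the same DMSO arrays, most of the called genes fell. Here 18 genes fell and 6 rose, 24 in all or 49% of the list, against 60.5% of all features called (30.9% higher and 29.6% lower). The falls included Orc2, E2f3, Mcm10, Orc1, Ccne1, Rfc3 and Mcm7, and the rises Rrm2 and E2f1. Called at 1.5-fold or more were Orc2, E2f3 and Ccne2, against 27.0% of all features. The median of the list was -0.11 against 0.03 over all features, with a median size of 0.18 against 0.35, and all 25 genes without a call had an interval inside 1.5-fold.

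Set directly against each other, CHIR99021 was above AICAR for 20 genes and below it for 7. These 27 genes are 55.1% of the list, where 60.8% of all features were called (36.2% higher and 24.6% lower). E2f3, Orc1 and Orc2 were called at 1.5-fold or more, against 28.0% of all features. The median was 0.17 against 0.10 over all features. Of the 22 genes without a call, 21 had an interval inside 1.5-fold. In this fit the share of the list that was called lay below the share of all features in all 3 comparisons. Without a filter on dim probes that order turned for AICAR against DMSO (5 higher and 18 lower, against 21.9% and 20.7% of all features). It also turned for CHIR99021 against AICAR (20 and 7, against 34.1% and 18.2%). The latter turned too after normexp background correction, with a trended prior and without AICAR replicate 1 (22 and 8, against 35.3% and 23.3%).

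Ccne2 passed the filter on dim probes only through the treated groups, so its place among the rises follows in part from that filter. Without it, 10 genes rose and 8 fell with CHIR99021 with a median of 0.00, and 5 rose and 18 fell with AICAR with a median of -0.11.

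**Figure D1:**
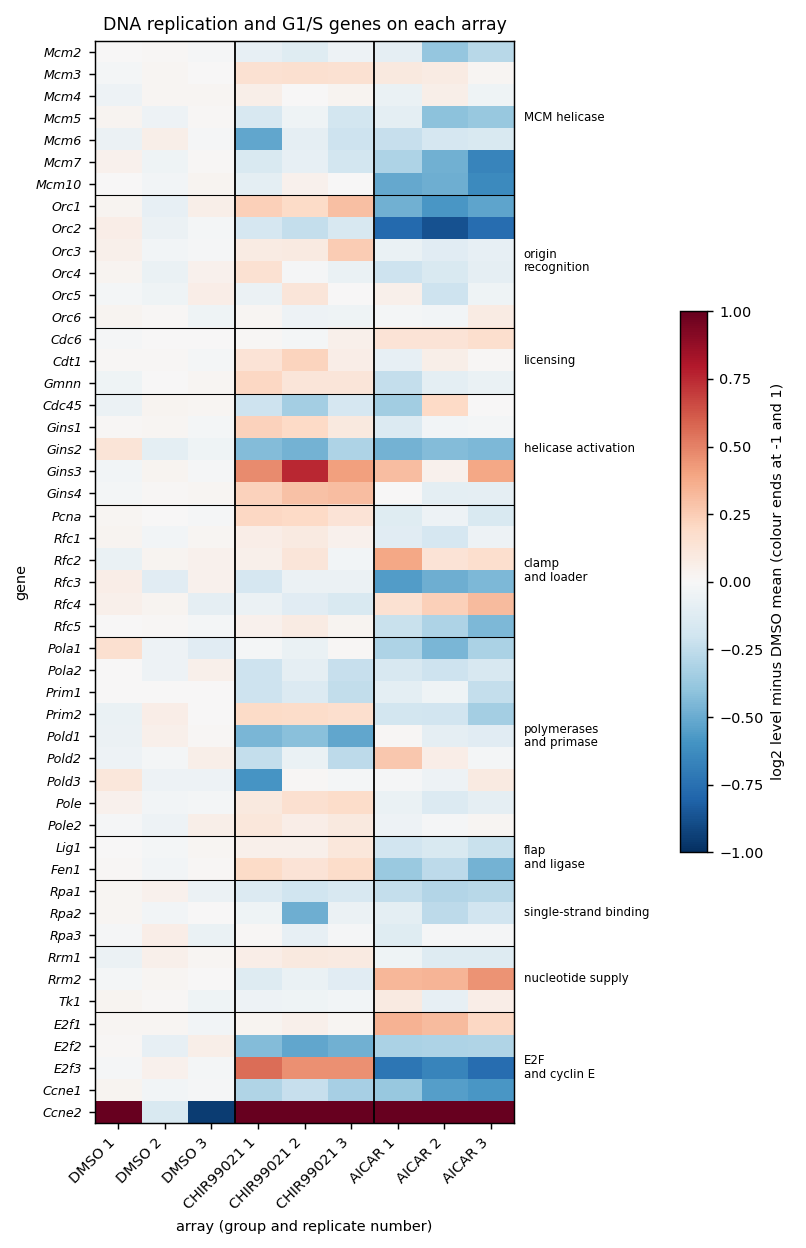
Heat map of the 49 genes (rows, grouped by role) on the 9 arrays (columns), coloured by the log2 level minus the mean of the DMSO arrays, with colours ending at -1 and 1. Orc2, E2f3, Mcm10 and Orc1 are blue on all 3 AICAR arrays, E2f3 is red on all 3 CHIR99021 arrays, and Ccne2, which varies from array to array within DMSO, runs off the scale.

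The balance of rises and falls over the whole list depended on how the arrays were scaled to each other. Setting arrays by 8 spike-in probes moved the median of all features from 0.03 to 0.15 for AICAR against DMSO and from 0.10 to -0.09 for CHIR99021 against AICAR. With that scaling 6 genes were higher and 9 lower in AICAR than in DMSO (33.2% and 17% of all features), with a list median of 0.02, which is again 0.13 below that of all features. Quantile normalization gave 11 higher and 15 lower with a median of 0.02 (31.7% and 26.3% of all features). The deposited series matrix gave 12 higher and 14 lower (31.9% and 26.1%) with a median of 0.04, no lower than all features. For CHIR99021 against AICAR the balance of the list turned, to 5 higher and 10 lower with the spike-ins, 10 and 16 with quantiles and 9 and 16 in the series matrix. The balance of all features moved too, to 15.8% higher and 29.1% lower, 29.1% and 28.4%, and 28.7% and 28.5%. For CHIR99021 against DMSO these settings gave 3 and 5 (16.9% and 17.8% of all features), 6 and 11 (25.5% and 23.8%), and 7 and 11 (25.3% and 23.8%). Normexp background correction gave 7 and 9 (32.8% and 18.1%). Of these 5 scalings, only the 75th percentile, with and without normexp correction (6 higher and 22 lower, against 29.9% and 28.8% of all features), gave a list median below 0 in AICAR, whereas the genes named next as kept were called in the same direction under these 4 other settings too.

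Kept for CHIR99021 against DMSO were 8 of the 19 calls: rises of E2f3, Gins3 and Ccne2 and falls of E2f2, Pold1, Gins2, Ccne1 and Prim1. Kept for AICAR against DMSO were 14 of the 24: falls of Orc2, E2f3, Mcm10, Orc1, Ccne1, Rfc3, Mcm7, Gins2 and Fen1, and rises of Rfc2, Rfc4, E2f1, Rrm2 and Ccne2. These scalings used the same filtered probes, which Ccne2 joined only through the treated groups. That its rises were kept therefore adds no support to them. Kept between the treatments were 11 of the 27, with Fen1, Mcm10, Orc2, Orc1 and E2f3 higher in CHIR99021, and Rrm2, Pold1, Rfc4, Pold2, E2f1 and E2f2 lower.

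**Figure D2:**
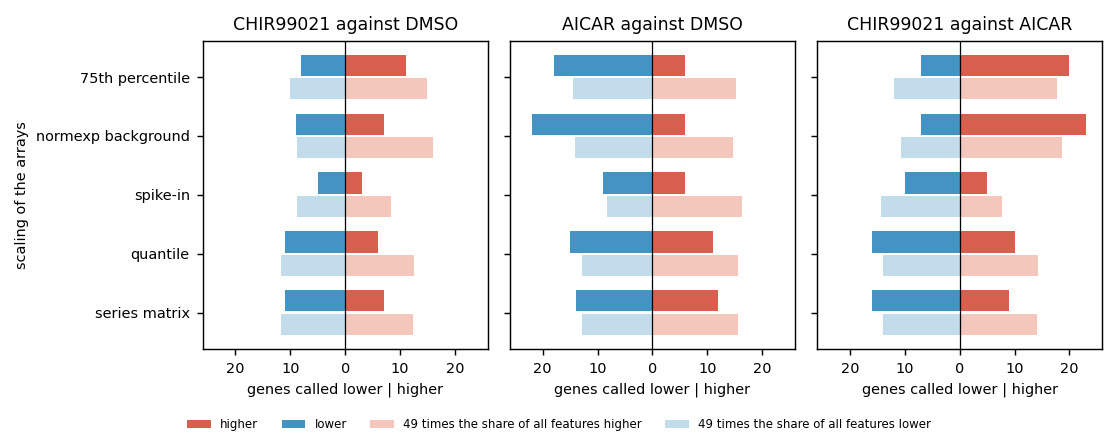
Number of the 49 genes called higher (right) and lower (left) in each comparison under 5 ways of setting the arrays to a common scale. Paler bars show the number that the share of all features called would give in a list of this size. The excess of lower calls in AICAR under the 75th percentile (18 lower, 6 higher) narrows to 14 lower and 12 higher in the series matrix.

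Of the 5 E2F and cyclin E genes, 2 rose and 2 fell with CHIR99021, where 30.4% of all features rose and 20.5% fell. With AICAR 2 rose and 3 fell (30.9% and 29.6% of all features). E2f3, an activator E2F, moved in opposite directions with the treatments. E2f3 read 2.14, 2.19 and 2.13 on the DMSO arrays, 2.71, 2.61 and 2.61 with CHIR99021 and 1.43, 1.49 and 1.39 with AICAR. The 3 groups did not overlap, with CHIR99021 highest and AICAR lowest. The difference from DMSO was 0.49 ± 0.05 with CHIR99021, a rise of 40.3% (limma adjusted p = 0.00012), and -0.72 ± 0.05 with AICAR (adjusted p = 9.66e-06). Between the treatments E2f3 was 2.31-fold higher in CHIR99021, a difference of 1.21 ± 0.05 (adjusted p = 6.71e-07). A dimmer probe for the same transcript gave 0.39, -0.83 and 1.21.

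E2f2, another activator E2F, was lower with each compound. Its levels were 2.49, 2.40 and 2.54 in DMSO, 2.05, 1.96 and 2.00 in CHIR99021 and 2.16, 2.17 and 2.18 in AICAR. Every treated array lay below every DMSO array. E2f2 fell by 0.47 ± 0.05 on the log2 scale with CHIR99021 (limma adjusted p = 0.000162) and by 0.31 ± 0.05 with AICAR (adjusted p = 0.00112), the latter call lost under the spike-ins. CHIR99021 lay 0.17 below AICAR (-0.17 ± 0.05, adjusted p = 0.0229), a difference whose adjusted p rose to between 0.0519 and 0.0762 on leaving out CHIR99021 replicate 2 or 3 or AICAR replicate 2 or 3.

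E2f1, the founding activator of the family, rose with AICAR alone among the comparisons with DMSO. It read 2.64, 2.64 and 2.59 in DMSO, 2.65, 2.67 and 2.64 in CHIR99021 and 2.97, 2.94 and 2.83 in AICAR. The AICAR arrays lay above all others, and those of DMSO and CHIR99021 overlapped. The difference was 0.29 ± 0.05 with AICAR (limma adjusted p = 0.00144) and 0.03 ± 0.05 with CHIR99021 (adjusted p = 0.689, 95% confidence interval -0.09 to 0.14), and CHIR99021 lay below AICAR by the direct test (-0.26 ± 0.05, adjusted p = 0.00228).

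Cyclin E1 (Ccne1) drives the kinase that fires origins. It read 5.90, 5.84 and 5.86 in DMSO, 5.57, 5.64 and 5.54 in CHIR99021 and 5.49, 5.32 and 5.29 in AICAR, so that no treated array reached the DMSO range. Ccne1 fell by 0.28 ± 0.06 with CHIR99021 (limma adjusted p = 0.00685) and by 0.50 ± 0.06 with AICAR (adjusted p = 0.000253), and a dimmer probe gave -0.32 and -0.75. The difference between the treatments, 0.22 ± 0.06, was called at adjusted p = 0.0174. It turned to -0.04 under quantile normalization and in the series matrix, and was 0.18 to 0.20 with adjusted p of 0.0531 to 0.0593 without CHIR99021 replicate 2, AICAR replicate 2 or AICAR replicate 3.

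Cyclin E2 (Ccne2) has the same partner kinase and was read near background. Its level was -5.69, -6.94 and -7.74 on the DMSO arrays, -4.41, -4.75 and -4.30 with CHIR99021 and -5.43, -5.68 and -4.60 with AICAR. Only 1 of the 3 DMSO arrays read it well above background, while every treated array did. Raw processed signals were 2.85 to 11.9 in DMSO, 21.4 to 29.6 in CHIR99021 and 11.5 to 23.4 in AICAR, so a few units of signal set the fold. The fitted difference was 2.30 ± 0.50 with CHIR99021 (limma adjusted p = 0.00566), and 0.55 after normexp correction. For AICAR it was 1.55 ± 0.50 (adjusted p = 0.0264) and 0.26 after normexp, and the adjusted p was 0.0704 to 0.0876 without DMSO replicate 2, DMSO replicate 3 or AICAR replicate 3, with differences of 1.08 to 1.48.

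**Figure D3:**
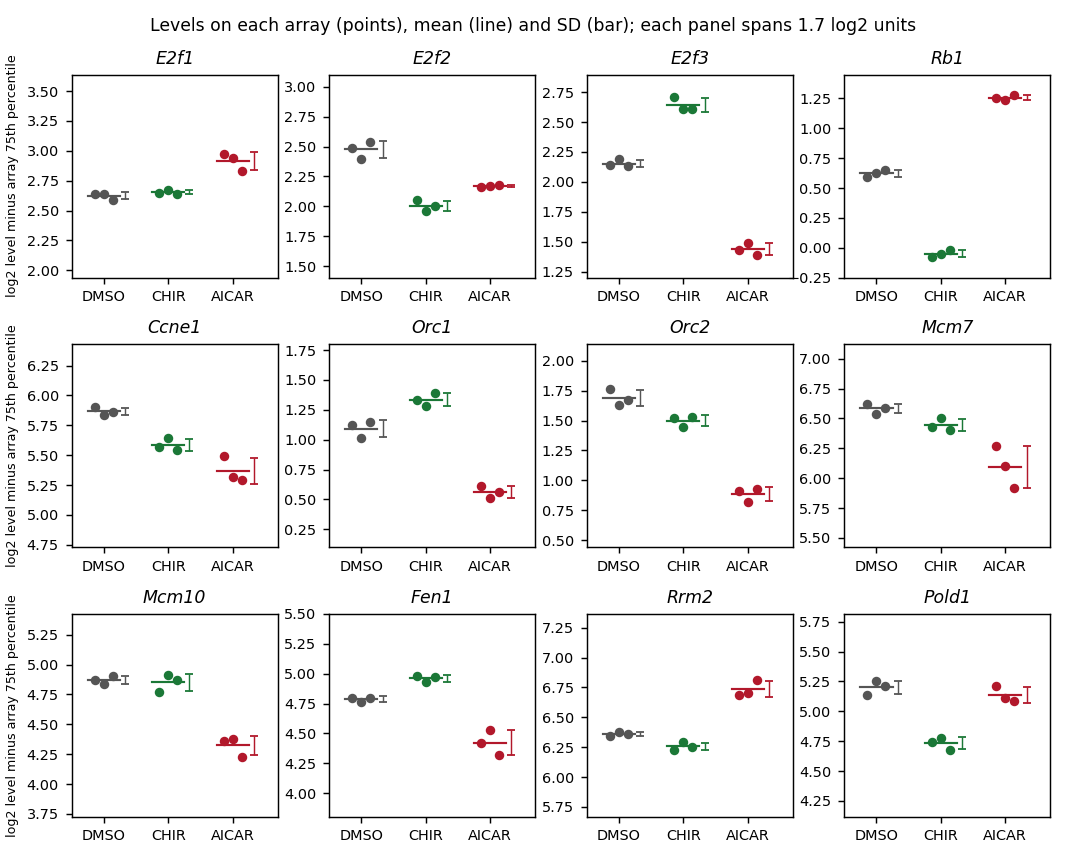
Log2 level (relative to the array's 75th percentile) of 12 genes on each array; points are arrays, lines group means and bars SDs over 3 arrays, and every panel spans the same range of the axis. E2f3 and Rb1 separate all 3 groups in opposite orders, while Orc2, Mcm10, Mcm7 and Fen1 are lowest in AICAR.

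The partners and repressors of E2F, a list of 13 genes outside the 49, were counted next. With CHIR99021 4 rose and 6 fell, where 30.4% of all features rose and 20.5% fell. With AICAR 6 rose and 3 fell (30.9% and 29.6% of all features), and between the treatments 4 were higher and 6 lower in CHIR99021 (36.2% and 24.6%). All of these counts come from the percentile scaling alone, and whether they move under the other scalings was not tested. Rb1, the retinoblastoma protein that holds activator E2Fs silent, read 0.59, 0.63 and 0.65 in DMSO, -0.08, -0.05 and -0.02 in CHIR99021 and 1.25, 1.24 and 1.28 in AICAR. The groups did not overlap, and their order was the reverse of that of E2f3. Rb1 fell by 0.67 ± 0.04 with CHIR99021 (limma adjusted p = 9.09e-06) and rose by 0.63 ± 0.04 with AICAR (adjusted p = 7.82e-06), calls that held under all 19 alternatives. Its relative Rbl2, looked up after the values of Rb1 were seen, differed by -0.37 ± 0.08 and 0.37 ± 0.08 (adjusted p = 0.00564 and 0.00441), the first not called after normexp correction (-0.11). For Rbl1, also looked up afterwards, the brighter probe gave -0.18 and 0.23, and a second probe gave 0.00 and -0.30, neither of the latter called.

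Of the other E2Fs, E2f4, E2f5 and E2f6 rose with CHIR99021, E2f8 fell and E2f7 was not called. E2f4, the E2F most used by the pocket proteins in quiescent cells, rose by 0.72 ± 0.10 (limma adjusted p = 0.000512) and E2f6, a repressor that works without them, by 0.62 ± 0.06 (adjusted p = 0.000108). With AICAR their differences were 0.04 and 0.10, without a call, and the direct contrast put both higher in CHIR99021, by 0.68 and 0.51. Tfdp1, the DNA-binding partner of the activator E2Fs, was chosen after its values were seen, and differed by -0.53 ± 0.06 with AICAR (adjusted p = 9.52e-05) against 0.09 with CHIR99021.

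The promoters of these genes can be read for the letters E2F factors bind. RefSeq promoters of assembly GRCm38.p6 (250 bases before and 50 after a transcript start) were found for 40 of the 49 genes. The E2F spellings TTTCCCGC or TTTGGCGC, on either strand, occurred in 15 of the 40 genes (37.5%) against 486 of 27025 genes (1.80%). CCAAT, the letters bound by NF-Y, which can share 1 end base with either spelling, occurred in 25 of 40 (62.5%) against 41.1% of all genes. Among the 15 genes with an E2F match 1 rose and 6 fell with AICAR, and among the 25 without it 3 rose and 10 fell, where 30.9% of all features rose and 29.6% fell. With CHIR99021 the counts were 3 and 2 among 15, and 3 and 5 among 25 (30.4% and 20.5% of all features). Between the treatments they were 5 higher and 3 lower among 15, and 10 and 4 among 25 (36.2% and 24.6%). The difference between genes with and without a match was not tested. Below, the 150 bases before the start are given for cyclin E1 and for the genes with the largest falls (Orc2 with AICAR, E2f2 with CHIR99021), and for E2f3 and Mcm6, picked after the search because their windows hold E2F matches. Capitals mark the E2F spellings, the related TTTCGCGC, added afterwards, and CCAAT, on either strand. E2f1 is not printed because its window lies inside the annotated gene.
E2f3 (chr13:29986064-29986213, minus strand): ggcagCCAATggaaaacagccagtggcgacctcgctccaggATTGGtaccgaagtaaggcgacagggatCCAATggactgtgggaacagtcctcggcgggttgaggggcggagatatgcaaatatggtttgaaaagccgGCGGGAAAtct
Mcm6 (chr1:128359706-128359855, minus strand): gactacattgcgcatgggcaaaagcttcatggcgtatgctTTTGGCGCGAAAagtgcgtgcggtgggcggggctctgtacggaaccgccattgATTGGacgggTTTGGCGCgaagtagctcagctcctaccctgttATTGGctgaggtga
E2f2 (chr4:136172124-136172273, plus strand): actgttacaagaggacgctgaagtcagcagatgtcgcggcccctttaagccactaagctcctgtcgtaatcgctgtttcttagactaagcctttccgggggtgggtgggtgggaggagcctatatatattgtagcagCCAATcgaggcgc
Ccne1 (chr7:38107491-38107640, minus strand): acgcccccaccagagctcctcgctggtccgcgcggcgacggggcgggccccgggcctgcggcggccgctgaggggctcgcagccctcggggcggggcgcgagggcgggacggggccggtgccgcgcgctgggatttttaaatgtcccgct
Orc2 (chr1:58505110-58505259, minus strand): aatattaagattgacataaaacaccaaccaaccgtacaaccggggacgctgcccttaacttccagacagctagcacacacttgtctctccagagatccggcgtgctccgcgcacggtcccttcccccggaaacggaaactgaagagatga

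In the E2f3 window TTTCCCGC lay on the opposite strand from -11 to -4, counting the first base before the start as -1, with CCAAT at 3 places upstream. The Mcm6 window held TTTGGCGC from -110 to -103 and from -47 to -40, the upstream copy overlapping TTTCGCGC on the other strand, and 2 copies of CCAAT. E2f2 has its TTTGGCGC after the start, from 40 to 47, and these letters are not in the Ccne1 and Orc2 windows.

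The origin recognition complex, which marks origins, had 2 of its 6 subunits called with AICAR, both lower. Over all features 60.5% were called, 29.6% of them all being lower. Orc2 read 1.76, 1.63 and 1.67 in DMSO, 1.52, 1.45 and 1.53 in CHIR99021 and 0.91, 0.82 and 0.93 in AICAR. The AICAR arrays stood well apart from the other groups. Orc2 fell by 0.80 ± 0.06 with AICAR, or 1.74-fold (limma adjusted p = 9.3e-06), and lay 0.61 ± 0.06 higher in CHIR99021 than in AICAR (adjusted p = 3.28e-05). With CHIR99021 it fell by 0.18 ± 0.06 (adjusted p = 0.0241), a call lost under the spike-ins and without DMSO replicate 1 or 3 or CHIR99021 replicate 1 or 2, when the adjusted p was 0.0524 to 0.0814.

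Orc1, the subunit whose supply varies through the cycle, read 1.12, 1.01 and 1.15 in DMSO, 1.33, 1.28 and 1.39 in CHIR99021 and 0.61, 0.51 and 0.56 in AICAR. Its 3 groups were ordered as those of E2f3 were and did not overlap. Orc1 rose by 0.24 ± 0.06 with CHIR99021 (limma adjusted p = 0.00916, lost under the spike-ins), fell by 0.53 ± 0.06 with AICAR (adjusted p = 0.000103) and was 1.71-fold higher in CHIR99021 than in AICAR (adjusted p = 1.15e-05). Orc3 to Orc6 had differences from DMSO of -0.15 to 0.14, none called. With AICAR, other scalings did call 2 of them. Orc4 was called lower under normexp, quantiles and the series matrix, with differences down to -0.22 over the alternatives. Orc6 was called higher under quantiles and the series matrix, with differences up to 0.21. A dimmer Orc3 probe, however, was called higher with CHIR99021 (0.33, limma adjusted p = 0.0129), as was the mean of both probes (0.23, adjusted p = 0.00389), against 0.14 for the brighter one. Orc3 was higher in CHIR99021 than in AICAR by 0.22 (adjusted p = 0.00942), a call the spike-ins, quantiles and series matrix did not keep.

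The licensing factors barely moved. Cdt1, which brings MCM to ORC, read 6.08, 6.08 and 6.05 in DMSO, 6.21, 6.29 and 6.14 in CHIR99021 and 5.99, 6.13 and 6.08 in AICAR. Its differences were 0.15 ± 0.06 with CHIR99021 (limma adjusted p = 0.0591) and 0.00 ± 0.06 with AICAR (adjusted p = 0.99). The CHIR99021 arrays all lay above the DMSO range, but the difference was not called. It was called with a trended prior, and without CHIR99021 replicate 3 or AICAR replicate 1 (0.18 and 0.15, adjusted p = 0.0455 and 0.0452). With AICAR the series matrix gave 0.17, which was called.

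Geminin (Gmnn), the inhibitor of Cdt1, read 3.19, 3.23 and 3.25 in DMSO, 3.44, 3.35 and 3.35 in CHIR99021 and 2.99, 3.13 and 3.16 in AICAR. CHIR99021 lay highest and AICAR lowest, with no overlap. Neither difference from DMSO was called (0.15 and -0.13, limma adjusted p = 0.0573 and 0.0846). The first was called without AICAR replicate 1 (adjusted p = 0.0255), with a trended prior and in the fit of the 2 groups alone. The second was called after normexp and with a trended prior. The difference between the treatments was called (0.29 ± 0.06, adjusted p = 0.00318), though not under quantiles, the series matrix or the spike-ins. Cdc6, the ATPase that loads MCM, read 1.86, 1.87 and 1.87 in DMSO, 1.88, 1.85 and 1.92 in CHIR99021 and 2.01, 2.01 and 2.04 in AICAR. DMSO and CHIR99021 overlapped and AICAR lay just above them. The AICAR rise of 0.16 ± 0.04 (adjusted p = 0.0101) was not shared by the dimmer Cdc6 probe, which gave -0.01, and the 2 probes gave -0.14 and 0.25 for CHIR99021 against AICAR. The call on -0.14 was lost without CHIR99021 replicate 1 or 2 (adjusted p = 0.0535 and 0.0623).

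Among the MCM genes, which encode the helicase core and the accessory Mcm10, 4 of 7 fell with AICAR and 1 rose with CHIR99021. Over all features 29.6% fell with AICAR and 30.4% rose with CHIR99021. Mcm10, which joins the helicase to the primase polymerase, read 4.87, 4.84 and 4.90 in DMSO, 4.77, 4.91 and 4.87 in CHIR99021 and 4.36, 4.38 and 4.23 in AICAR. DMSO and CHIR99021 overlapped, and AICAR lay below both. Mcm10 fell by 0.55 ± 0.06 with AICAR (limma adjusted p = 0.0001), differed by -0.02 ± 0.06 with CHIR99021 (adjusted p = 0.782, 95% confidence interval -0.16 to 0.11) and was higher in CHIR99021 than in AICAR by 0.53 ± 0.06 (adjusted p = 0.000111).

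Within the ring itself Mcm7 fell by 0.49 ± 0.08 with AICAR (limma adjusted p = 0.00144), from 6.62, 6.54 and 6.59 in DMSO to 6.27, 6.10 and 5.92, below the 6.43, 6.5 and 6.40 of CHIR99021. The AICAR arrays were the lowest and also the most spread. Mcm2 and Mcm5 fell by 0.25 and 0.29, calls that quantiles, the series matrix and the spike-ins did not keep. They also had adjusted p above 0.05 without DMSO replicate 2 or AICAR replicate 3 (Mcm2, differences of -0.25 and -0.24) and without DMSO replicate 1 or 3 or AICAR replicate 2 or 3 (Mcm5, -0.24 to -0.29). The remaining ring genes Mcm3, Mcm4 and Mcm6 differed by 0.07, -0.01 and -0.18, none called. Other settings did call them with AICAR. Mcm3 was called higher under quantiles and the series matrix (up to 0.23), and Mcm4 higher in the series matrix (0.17). Mcm6 was called lower after normexp, in the fit of the 2 groups alone and without CHIR99021 replicate 1. Subunits of 1 ring thus had unequal differences on the same arrays. With CHIR99021 the largest difference was that of Mcm6, which read 7.43, 7.55 and 7.48 in DMSO, 6.97, 7.40 and 7.28 in CHIR99021 and 7.26, 7.32 and 7.34 in AICAR. CHIR99021 replicate 1 was the lowest of the 9, and the difference of -0.27 ± 0.10 was not called (adjusted p = 0.0598). Without CHIR99021 replicate 2 it was -0.36 and called (adjusted p = 0.0196), as it was under normexp, quantiles and the series matrix (-0.31, -0.36 and -0.36). Without CHIR99021 replicate 1 it was -0.15 and not called (adjusted p = 0.112). The rise of Mcm3 by 0.15 ± 0.04 with CHIR99021 (adjusted p = 0.0178) was lost under all 4 other scalings and without DMSO replicate 1 or 3 or CHIR99021 replicate 2.

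GINS, the 4-subunit clasp of the active helicase, changed unevenly, 3 subunits up and 1 down with CHIR99021 (30.4% and 20.5% of all features). Gins3 read 5.30, 5.36 and 5.32 in DMSO, 5.80, 6.08 and 5.74 in CHIR99021 and 5.64, 5.37 and 5.72 in AICAR. All treated arrays exceeded the DMSO range, CHIR99021 by the most. Its rise was 0.55 ± 0.11 with CHIR99021 (limma adjusted p = 0.00486), and with AICAR the difference of 0.25 ± 0.11 was not called (adjusted p = 0.0905), although it was without AICAR replicate 2 (0.36, adjusted p = 0.022), under quantiles and in the series matrix (0.43 in both) and after normexp (0.29).

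Gins2 went the other way, from 3.19, 2.96 and 3.02 in DMSO to 2.63, 2.59 and 2.75 in CHIR99021 and 2.59, 2.63 and 2.61 in AICAR. Both treatments lay below DMSO and overlapped each other. Gins2 fell by 0.40 ± 0.07 with CHIR99021 (limma adjusted p = 0.00209) and by 0.45 ± 0.07 with AICAR (adjusted p = 0.000846), and the treatments differed by 0.05 with a 95% confidence interval of -0.12 to 0.21. Gins4 rose by 0.27 and Gins1 by 0.18 with CHIR99021 (adjusted p = 0.00184 and 0.0276), calls that the spike-ins did not keep, nor for Gins1 quantiles and the series matrix. The Gins1 adjusted p also rose to between 0.0579 and 0.0917 without any 1 DMSO array or CHIR99021 replicate 1 or 2. Cdc45, the third part of the active helicase, differed by -0.24 ± 0.13 and -0.05 ± 0.13, neither called. The first was called without AICAR replicate 1 (-0.24, adjusted p = 0.0316) and in the fit of the 2 groups alone (adjusted p = 0.0219).

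The clamp Pcna, which tethers the polymerases, read 6.54, 6.52 and 6.51 in DMSO, 6.73, 6.72 and 6.66 in CHIR99021 and 6.40, 6.47 and 6.37 in AICAR. Its groups did not overlap, but the differences were small. Pcna rose by 0.18 ± 0.05 with CHIR99021 (limma adjusted p = 0.0111, lost under quantiles and the spike-ins), differed by -0.11 ± 0.05 with AICAR (adjusted p = 0.0735) and was 0.29 ± 0.05 higher in CHIR99021 than in AICAR (adjusted p = 0.00077, lost under quantiles, the series matrix and the spike-ins).

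The clamp loader split under AICAR, with 2 subunits up and 2 down (30.9% and 29.6% of all features). Rfc3 went from 1.24, 1.06 and 1.21 in DMSO to 0.61, 0.68 and 0.72, with 1.00, 1.11 and 1.11 in CHIR99021. Only the AICAR arrays stood apart. Rfc3 fell by 0.50 ± 0.07 with AICAR (limma adjusted p = 0.000296), and Rfc5 fell by 0.32 ± 0.06 (adjusted p = 0.00247, lost under the spike-ins). Rfc4 rose by 0.24 ± 0.06 (adjusted p = 0.0109), with 0.25 from a second probe. Rfc2 rose by 0.23 ± 0.08 (adjusted p = 0.0336), a call lost without DMSO replicate 1, 2 or 3, CHIR99021 replicate 1 or AICAR replicate 1, with differences of 0.15 to 0.25. Rfc1, the large subunit, differed by -0.11 with AICAR, and no loader subunit was called with CHIR99021. Between the treatments Rfc1 was higher in CHIR99021 by 0.18 and turned to -0.04 under quantiles, -0.05 in the series matrix and -0.01 with the spike-ins.

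**Figure D4:**
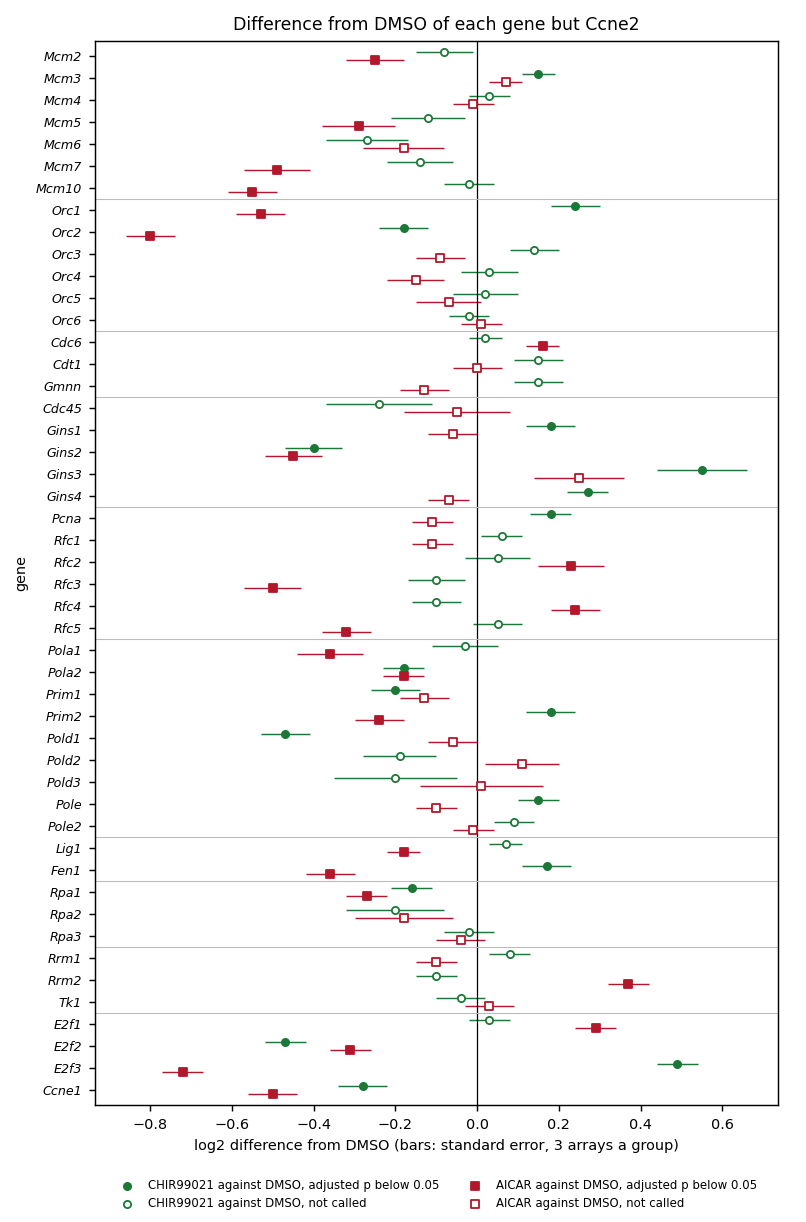
Log2 difference from DMSO of 48 genes (all but Ccne2) with CHIR99021 (green circles) and AICAR (red squares); bars are standard errors, and filled symbols have a limma adjusted p under 0.05. Differences ran from -0.47 to 0.55 with CHIR99021 and from -0.80 to 0.37 with AICAR, and within MCM, GINS and the clamp loader the subunits scatter to both sides of zero or across unequal sizes.

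Of the 9 polymerase and primase genes, 2 rose and 3 fell with CHIR99021, where 30.4% of all features rose and 20.5% fell. With AICAR 3 fell and none rose (29.6% and 30.9% of all features). Pold1, the catalytic subunit of polymerase delta that copies the lagging strand, read 5.14, 5.25 and 5.21 in DMSO, 4.74, 4.78 and 4.68 in CHIR99021 and 5.21, 5.11 and 5.09 in AICAR. The CHIR99021 arrays were the lowest and the other groups overlapped. Pold1 fell by 0.47 ± 0.06 with CHIR99021 (limma adjusted p = 0.000269), differed by -0.06 ± 0.06 with AICAR (adjusted p = 0.351) and was lower in CHIR99021 than in AICAR (-0.40 ± 0.06, adjusted p = 0.000368). Its partner subunits Pold2 and Pold3 differed from DMSO by -0.19 and -0.20 with CHIR99021, neither called. Pold2 was, however, called lower under normexp, quantiles, the series matrix and a trended prior, with differences down to -0.28 over the alternatives. The Pold3 value rested on CHIR99021 replicate 1 (3.63, against 4.23 and 4.20 on the other CHIR99021 arrays) and was -0.01 without it. Pold2 was lower in CHIR99021 than in AICAR (-0.30, adjusted p = 0.0171), though not without CHIR99021 replicate 1 (-0.27, adjusted p = 0.0556) or 3 (-0.26, 0.0566).

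Pola1, the catalytic subunit of the priming polymerase, read 2.83, 2.62 and 2.56 in DMSO, 2.65, 2.60 and 2.68 in CHIR99021 and 2.36, 2.21 and 2.35 in AICAR. Here it was AICAR that lay below the rest. Pola1 fell by 0.36 ± 0.08 with AICAR (limma adjusted p = 0.00443, lost under the spike-ins) and differed by -0.03 with CHIR99021. Pola2, its second subunit, fell by 0.18 with each compound, and lost the call in both comparisons under normexp, the spike-ins and the omission of DMSO replicate 1 or 3, with CHIR99021 also that of CHIR99021 replicate 1 or 3 and with AICAR that of AICAR replicate 2 (adjusted p of 0.053 to 0.0907). Prim1, the catalytic primase, fell by 0.20 with CHIR99021 (adjusted p = 0.0269, and 0.0654 to 0.0828 without any 1 DMSO array or CHIR99021 replicate 1 or 3).

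Prim2, the large primase subunit, rose by 0.18 with CHIR99021 (limma adjusted p = 0.0419) and fell by 0.24 with AICAR (adjusted p = 0.0107), neither of the Prim2 calls being kept by quantiles, the series matrix or the spike-ins. Its rise was also lost without DMSO replicate 1 or 3 or any 1 CHIR99021 array (adjusted p of 0.0818 to 0.131). Pole, which copies the leading strand, rose by 0.15 with CHIR99021 (adjusted p = 0.0296, lost under all 4 scalings and, at 0.0786 to 0.095, without DMSO replicate 2 or 3 or CHIR99021 replicate 2 or 3), and its excess of 0.24 over AICAR (adjusted p = 0.00215) turned to -0.01 under quantiles and 0.00 in the series matrix. Pole2 was not called in any comparison.

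For the joining of lagging-strand fragments, Fen1, the flap endonuclease, read 4.80, 4.76 and 4.80 in DMSO, 4.98, 4.93 and 4.97 in CHIR99021 and 4.42, 4.53 and 4.32 in AICAR. The groups were ordered CHIR99021, DMSO, AICAR without overlap. Fen1 fell by 0.36 ± 0.06 with AICAR (limma adjusted p = 0.000938) and was 0.53 ± 0.06 higher in CHIR99021 than in AICAR (adjusted p = 9.58e-05). Its rise of 0.17 ± 0.06 with CHIR99021 (adjusted p = 0.0387) was lost under normexp and the spike-ins and on leaving out any 1 DMSO or CHIR99021 array, with an adjusted p of 0.0639 to 0.109. Lig1, the ligase that seals the nick, fell by 0.18 with AICAR (adjusted p = 0.00708), which quantiles, the series matrix and the spike-ins did not keep.

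The single-strand binding complex fell in its large subunit. Rpa1 read 6.57, 6.59 and 6.49 in DMSO, 6.41, 6.35 and 6.39 in CHIR99021 and 6.31, 6.26 and 6.27 in AICAR, the treated arrays all below DMSO. Rpa1 fell by 0.16 ± 0.05 and 0.27 ± 0.05 (limma adjusted p = 0.0205 and 0.00153), calls lost under the spike-ins, and for AICAR in the series matrix. The CHIR99021 call was also lost without DMSO replicate 1 or 2 or CHIR99021 replicate 2, with an adjusted p of 0.0647 to 0.0744. Rpa2 read 2.74, 2.69 and 2.72 in DMSO, 2.68, 2.23 and 2.66 in CHIR99021 and 2.62, 2.46 and 2.53 in AICAR, with CHIR99021 replicate 2 far below the other arrays of its group, and was not called (-0.20 ± 0.12 and -0.18 ± 0.12). Without CHIR99021 replicate 2 the CHIR99021 difference was -0.05, and the AICAR difference, still -0.18, was called (adjusted p = 0.0267). Rpa3 differed by -0.02 and -0.04, without a call.

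For nucleotide supply the gene called against DMSO was Rrm2, the S-phase subunit of ribonucleotide reductase. Rrm2 read 6.34, 6.38 and 6.36 in DMSO, 6.23, 6.29 and 6.25 in CHIR99021 and 6.69, 6.70 and 6.81 in AICAR. The AICAR arrays were the highest and CHIR99021 the lowest. Rrm2 rose by 0.37 ± 0.05 with AICAR, or 29.5% (limma adjusted p = 0.000306), differed by -0.10 ± 0.05 with CHIR99021 (adjusted p = 0.124) and was lower in CHIR99021 than in AICAR (-0.47 ± 0.05, adjusted p = 7.19e-05). The partner subunit Rrm1 differed from DMSO by -0.10 with AICAR and 0.08 with CHIR99021, neither called, and its call between the treatments, 0.19, turned to -0.06 under quantiles and -0.05 in the series matrix. Thymidine kinase Tk1 differed by 0.03 with AICAR and -0.04 with CHIR99021, neither called. Quantiles and the series matrix did call Tk1 higher with AICAR, with differences up to 0.23 over the alternatives. Both also called Tk1 lower in CHIR99021 than in AICAR (down to -0.31), and Rrm2 lower in CHIR99021 than in DMSO (down to -0.17).

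Further replication and S phase genes outside the list numbered 38. With CHIR99021 9 rose and 6 fell, 39.5% called against 51.0% of all features. With AICAR 3 rose and 20 fell, with a median of -0.21, and the 60.5% called equalled the share over all features, of which 30.9% were higher and 29.6% lower. Between the treatments 20 were higher and 5 lower in CHIR99021, 65.8% called against 60.8% of all features (36.2% higher and 24.6% lower). These counts come from the percentile scaling alone. The balance of the list itself moved with the scaling, and whether the counts of these further genes do was not tested. With AICAR the largest rise was that of Rrm2b, the reductase subunit known as a p53 target, at 1.72 ± 0.12 (limma adjusted p = 1.01e-05). After normexp it was 0.81, and a second Rrm2b probe gave 0.44, not called. The largest falls were those of Mcm9, a helicase of recombination, at -0.83 ± 0.07, Top1, which relieves supercoils, at -0.79 ± 0.09, and Pole3, an accessory subunit of polymerase epsilon, at -0.74 ± 0.10, and these 3 calls held under all 19 alternatives, with Mcm9 at -0.36 after normexp.

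Pold4, the small subunit of polymerase delta, fell by 0.55 ± 0.08 with CHIR99021 and rose by 0.59 ± 0.08 with AICAR (limma adjusted p = 0.001 and 0.000513). CHIR99021 also lowered Top2a, the topoisomerase of G2 and mitosis (-0.42 ± 0.05, adjusted p = 0.000357), and raised Dck, a kinase of nucleotide salvage (0.44 ± 0.08, adjusted p = 0.00261). Tyms, which makes thymidylate, was 0.81 ± 0.11 higher in CHIR99021 than in AICAR (adjusted p = 0.000428).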

How the data were processed

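Total RNA of 9 samples, 3 a group, was hybridised to Agilent 1-colour arrays. In the scanner files as deposited, each spot has an intensity, made with Feature Extraction 10.7.3.1 per the file headers. The deposited series matrix holds log2 values of the same arrays (correlation with the log2 processed signal 0.99962 to 0.99999), with a centring not given in the sources used here. It served as an alternative.

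Processed signals were put on the log2 scale and set to the 75th percentile of the array's spots other than controls, without outlier spots (136 to 192 an array). Probes well above background on at least 3 arrays were kept (37742 of 55681), and the brightest probe stood for a gene. Accessions were matched to the RefSeq gene table given here, of assembly GRCm38.p6, for names. The file headers name another build, mm9, so no coordinates of the array are given. A single model over the 9 arrays (limma 3.58.1, lmFit and eBayes) gave all 3 comparisons. The method was also run on simulated data with independent noise and changes in few features. Those data do not stand for these arrays, where many features were called and each group had its own slide. Alternatives were normexp background correction (on median signals, because the mean signals were not found in the files), quantile normalization, the series matrix, 8 spike-in probes, other filters, probe averaging, fits of 2 groups, a trended prior, a replicate block and leaving out each array.

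The 49 genes and the other lists were chosen with earlier results of these data known. Every array's values are given for the largest difference in each role under each treatment, for calls of 1.5-fold or more, and for E2f1, E2f2, E2f3, Ccne1, Ccne2, Cdt1, Gmnn and Pcna. Of the wider lists, the 3 largest called rises and falls per comparison were eligible to be named.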

Additional observations from a re-analysis of the deposited data

How the results depend on the processing

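The median of the 49 genes moved with scaling. For CHIR99021 against DMSO it was 0.00 after normexp, -0.05 under quantiles, the series matrix and the spike-ins, 0.00 with the filter on all 9 arrays, and -0.01 to 0.02 on leaving out 1 array. For AICAR against DMSO it was -0.14, 0.02, 0.04 and 0.02 under the same 4 scalings, and -0.14 to -0.09 on leaving out 1 array. For CHIR99021 against AICAR it was 0.14, -0.06, -0.05 and -0.02, and 0.12 to 0.17 on leaving out 1 array. Genes higher with CHIR99021 than DMSO numbered 7, 6, 7 and 3 under normexp, quantiles, the series matrix and the spike-ins, and lower genes 5 with the spike-ins. On leaving out 1 array, 6 (without DMSO replicate 3) to 13 were higher and 4 (without DMSO replicate 1) to 9 lower. The shares of all features then ran from 26% to 31.1% higher and from 17.4% to 21.1% lower. In AICAR 11 and 12 genes were higher than DMSO under quantiles and the series matrix, and 9 lower with the spike-ins. CHIR99021 was above AICAR for 10, 9 and 5 genes under quantiles, the series matrix and the spike-ins, and below it for 16 in the first 2. The cause was not tested.

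Same-numbered samples did not deviate together (correlations of -0.06 to 0.09, against -0.13 to 0.11 for samples of unlike number). No pairing was seen in the values, which cannot show whether same-numbered samples were grown together. With a replicate block 7 genes were higher and 8 lower in CHIR99021 than DMSO (28.3% and 19% of all features). For AICAR against DMSO they were 5 and 17 (29.6% and 28%), and for CHIR99021 against AICAR 20 and 7 (34.6% and 23.8%). Genes without a call that gained a call on leaving out an array numbered 0 to 6 over the 3 comparisons. Calls kept on leaving out each array in turn were 10 of 19, 19 of 24 and 23 of 27 in the same order.

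Directions reversed for CHIR99021 against AICAR under quantiles and the series matrix for Ccne1 (-0.04, -0.04), Mcm3 (-0.13, -0.14), Mcm4 (-0.15, -0.18), Pole (-0.01, 0.00), Rfc1 (-0.04, -0.05, and -0.01 with the spike-ins), Rpa3 (-0.20, -0.20) and Rrm1 (-0.06, -0.05, and 0.00 with the spike-ins). For AICAR against DMSO they did for Cdt1 and Mcm4 in the series matrix (0.17, 0.17) and Rpa3 under quantiles (0.16). Other probes reversed Cdc6 (-0.01 for AICAR against DMSO, 0.25 for CHIR99021 against AICAR, 0.06 there for the mean of both probes) and Rbl1 (-0.30 for AICAR against DMSO, -0.03 for the mean of both, and 0.30 for CHIR99021 against AICAR). With 3 arrays a group and a median interval half-width of 0.13, differences smaller than that are mostly not detectable, and Ccne2 lies at the limit of signal over background.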
